A study of Homo sapiens with 8 samples.

Results

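Interferon-stimulated genes are the antiviral and signalling genes that cells transcribe in response to interferon. Of the 18638 gene models counted in these libraries, 9 were taken by their symbols: IFIT1, IFIT2, IFIT3, ISG15, OAS1, MX1, IFI6, IFI44 and IRF9. No cut on their values was used, but they were chosen with earlier results of these data known. All 9 were in both count tables and passed the filter on low counts in both cell lines. Nascent RNA came from factory-seq, in which RNA held at sites of transcription is released from nuclei with caspases and sequenced, in 2 libraries of each of 4 groups of colorectal cancer cells. The DLD-1 cells carried an auxin-dependent degron and a fluorescent tag on POLR2A, which encodes RPB1, the catalytic subunit of RNA polymerase II, together with an inducible OsTIR1 (DLD-1-mAID-mClover-POLR2A(Tet-OsTIR1)), and were either untreated or given 500 µM auxin for 14 h. The HCT116 cells carried the degron on TOP2A, a DNA topoisomerase (TOP2A-mAID). The second HCT116 group, called TOP2Bko here, was also labelled as lacking TOP2B (TO2B-/--TOP2A-mAID). Its titles call it a control, while its treatment field gives 500 µM auxin for 14 h and the names of its count columns read aux. A difference between the HCT116 groups therefore cannot be assigned to the knockout or to auxin. Each line is an engineered derivative, and nothing in the labels says that the libraries of a group came from separate cultures, so p-values measure the spread between these libraries, which may be technical. The DLD-1 auxin and TOP2Bko groups were labelled with 24 h of doxycycline, which induces OsTIR1. The labels do not say whether untreated cells received doxycycline, or whether the sorting of G1 cells that the labels mention was applied. These libraries do not measure RPB1 protein, so a difference in DLD-1 cannot be assigned to loss of RPB1, to auxin or to doxycycline. In HCT116, doxycycline is likewise not separated from the knockout and auxin. All titles describe asynchronous cells.

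Type I and type III interferons bind receptors on the cell surface, whose JAK kinases phosphorylate STAT factors. These join IRF9 to form the complex ISGF3, which enters the nucleus and binds a DNA element, the interferon-stimulated response element (ISRE), in the promoters of target genes. IRF9 thus serves the pathway as a factor and is itself induced by interferon. ISG15 is a ubiquitin-like protein that is joined to other proteins, the IFIT proteins bind viral RNA, OAS1 makes oligoadenylates that switch on an RNase, MX1 is a GTPase that blocks viruses, IFI6 is a small membrane protein with antiviral action, and IFI44 is a cytoplasmic protein induced with them. Many epithelial cell lines transcribe some of these genes at a low level without added interferon.

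The promoters were examined because ISGF3 acts there. RefSeq promoter sequences (GRCh38.p14) were found for 8 of the 9 genes, IFIT2 being the one not matched. These genes had 12 promoter entries, and only the first entry of each gene was searched. The other interferon-stimulated genes were treated likewise, while the share over all promoters counts every entry. The 250 bases before each gene start were searched on both strands for the ISRE core GAAANNGAAA, which was found in 5 of the 8 genes (62.5%), in 18 of 33 other interferon-stimulated genes with a sequence (54.5%), and in 1061 of 35116 promoters overall (3.02%). The core of the GAS element (gamma-activated site), TTCNNNGAA, was found in OAS1 and IRF9 (25.0% of the 8), in 21.2% of the other interferon-stimulated genes and in 6.57% of all promoters. The stretches that hold the ISRE cores are shown on the strand of the gene, with the bases of the matches in capitals. They lie upstream of the counted gene, except in IFIT3, where the counted model starts farther upstream and contains the stretch. A match on the opposite strand reads as TTTCNNTTTC.
IFIT1, chr10:89392463-89392545, plus strand: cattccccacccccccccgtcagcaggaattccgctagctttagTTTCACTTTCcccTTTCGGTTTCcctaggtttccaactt
IFIT3, chr10:89327865-89327894, plus strand: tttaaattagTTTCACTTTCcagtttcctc
ISG15, chr1:1013337-1013466, plus strand: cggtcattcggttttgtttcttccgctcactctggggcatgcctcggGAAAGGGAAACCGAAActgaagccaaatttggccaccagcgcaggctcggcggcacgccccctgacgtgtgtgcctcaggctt
IFI6, chr1:27672214-27672352, minus strand: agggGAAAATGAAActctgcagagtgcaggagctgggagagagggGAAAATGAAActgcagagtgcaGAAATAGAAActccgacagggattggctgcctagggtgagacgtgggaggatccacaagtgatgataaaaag
IFI44, chr1:78649629-78649788, plus strand: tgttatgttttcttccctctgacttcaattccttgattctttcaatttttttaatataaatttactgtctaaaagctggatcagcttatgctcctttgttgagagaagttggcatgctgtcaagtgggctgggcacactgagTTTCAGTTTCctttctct

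IFIT1 held 2 matches, at -116 to -107 and -103 to -94 from the gene start. IFIT3 also held 2, at -156 to -147 and -122 to -113, of which the stretch above shows the nearer. In ISG15 the 2 matches overlapped, from -113 to -104 and from -107 to -98. IFI6 had 3 matches, at -156 to -147, -115 to -106 and -93 to -84, and the single match of IFI44 lay at -18 to -9. The GAS core lay at -168 to -160 in OAS1 and at -63 to -55 in IRF9, and the MX1 window held neither core. Other promoter entries of a gene were not searched, so a match before another start would be missed.

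**Figure D1:**
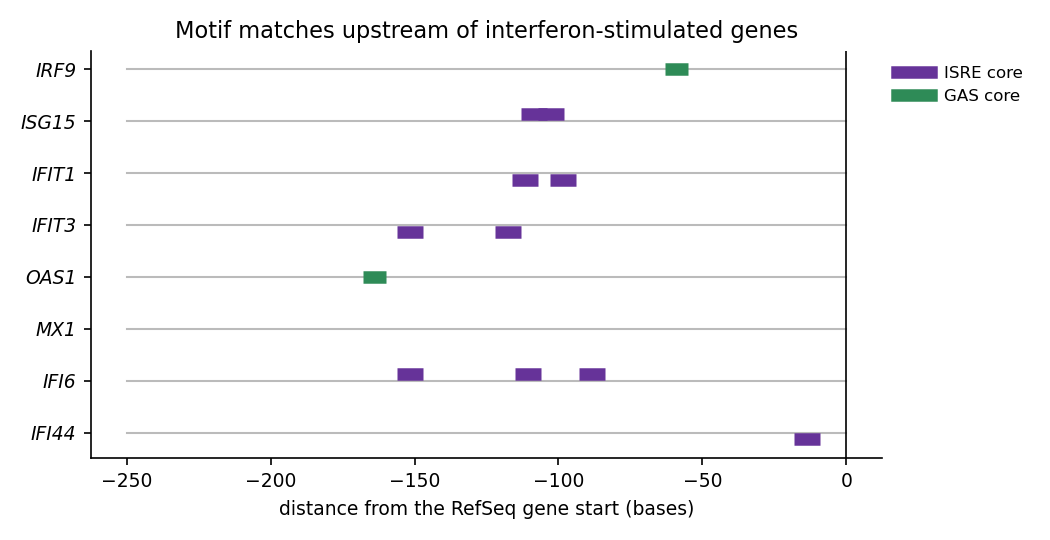
Positions of ISRE core (purple) and GAS core (green) matches in the 250 bases before the RefSeq start of 8 interferon-stimulated genes, with distance from the start in bases on the x axis and symbols above or below a line for the plus or minus strand. ISRE cores lie in IFIT1, IFIT3, ISG15, IFI6 and IFI44, GAS cores in OAS1 and IRF9, and none in the MX1 window.

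Total counts were 36906755 to 62626875 in DLD-1 controls and 10739622 to 14183633 in auxin libraries, and HCT116 libraries had 32129400 to 36491540. A background density was taken from 3096 genes with few reads in the controls of the other line (silent genes), as median reads per counted base, and the reads it would give over all gene models came to 2.24% and 9.02% of the total in DLD-1 controls and to 39.5% and 59.6% in auxin libraries, with 0.268% to 3.04% for HCT116. POLR2A had 280.9 and 179.9 CPM (counts relative to library size after TMM scaling) in DLD-1 controls and 159.4 and 108.0 after auxin, with a log2 fold change of -0.78 that was not called (edgeR adjusted p = 0.0774). Auxin acts on the tagged protein, so this RNA does not check the treatment. TOP2A had a log2 fold change of -0.09 in TOP2Bko (edgeR adjusted p = 0.466), and TOP2B was 185.7 and 191.7 CPM in controls and 134.6 and 131.6 in TOP2Bko (log2 fold change -0.50, edgeR adjusted p = 0.0269), so reads over TOP2B remained in the libraries labelled as lacking it. The 9 epithelial markers summed to 7218 and 5589 CPM in DLD-1 controls and 5184 and 3726 after auxin. Of these markers 3 were called lower and 1 higher, against 35.0% and 32.2% of all genes. In HCT116 they summed to 3976 and 5026 CPM in controls and 3294 and 2904 in TOP2Bko, where edgeR called 1 of 7 lower, CDH1, with 5 at an unadjusted p under 0.05, and DESeq2 called 5 of 6 lower. Of all genes in HCT116, edgeR called 1.66% lower and DESeq2 called 15.3% in either direction. The part of these markers in the results was not tested.

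In untreated cells of both lines, ISG15 had the highest level of the 9 genes for its length. It reached 7.26 ± 0.392 CPM per kb of counted length in DLD-1 controls and 18.9 ± 5.87 in HCT116 controls (SD, n = 2), followed in both lines by IRF9 at 1.39 ± 0.15 and 1.36 CPM per kb. In DLD-1 controls the order then ran IFI6, OAS1, IFIT2, IFIT1, MX1, IFIT3 and IFI44, from 1.22 down to 0.0602 CPM per kb, and of these neighbours only OAS1 and IFIT2 had overlapping libraries. In HCT116 controls it ran IFIT2, IFI6, IFIT1, IFIT3, IFI44, OAS1 and MX1, from 0.796 down to 0.0406 CPM per kb, with overlap between IFIT2 and IFI6 and between OAS1 and MX1. OAS1 thus stood at rank 4 of the 9 in DLD-1 controls and at rank 8 in HCT116 controls, where it had 27 and 16 reads, while MX1 was at rank 7 in DLD-1 and at rank 9 in HCT116, where it had 61 and 47 reads. The lines were scaled separately, so levels were ordered within a line and not tested between lines.

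**Figure D2:**
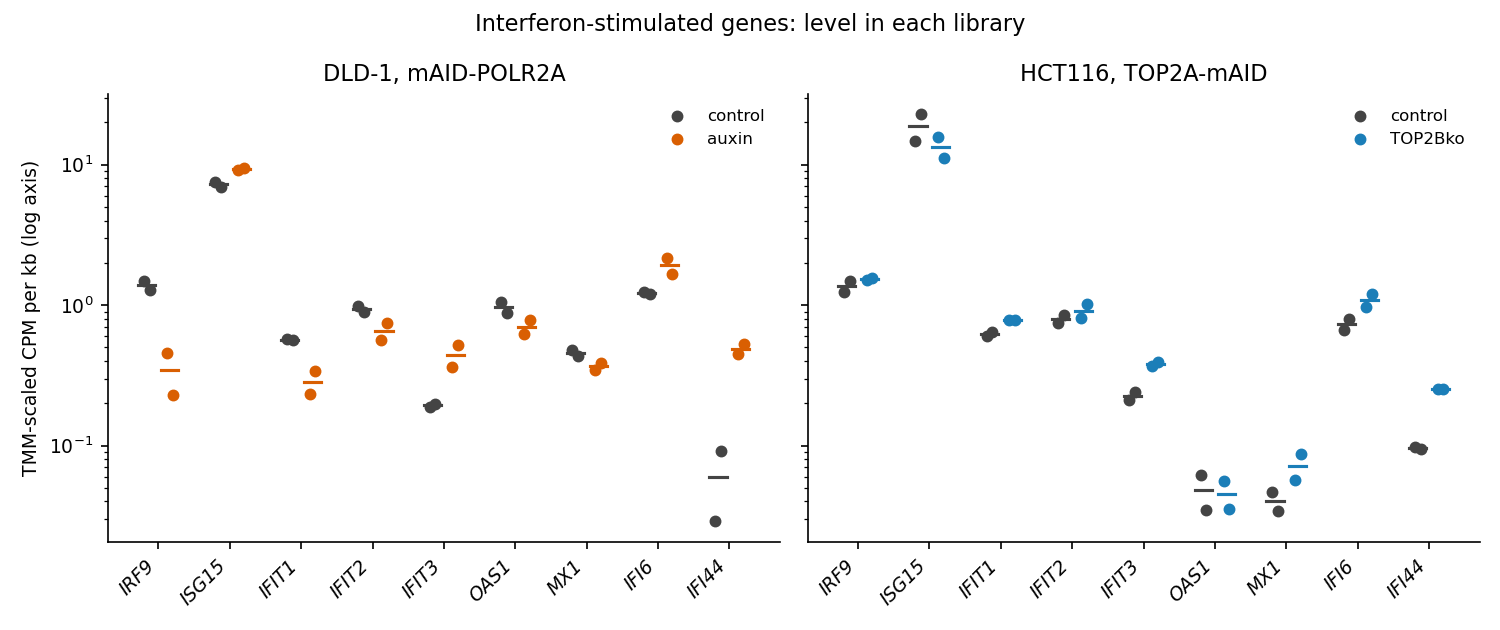
TMM-scaled CPM per kb of counted length (log y axis) of the 9 genes in each library of DLD-1 (left) and HCT116 (right), with points for libraries and bars for the mean of 2. ISG15 lies highest in all 4 groups, IFI44 rises and IRF9 falls between DLD-1 control and auxin, and in HCT116 the points of IFI44 and IFIT3 are higher in TOP2Bko than in control.

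The DLD-1 comparison asks how transcription of these genes differed after auxin, in cells with the degron on RPB1. IRF9, the DNA-binding part of ISGF3, fell by 2.01 on the log2 scale, while IFI44 and IFIT3 rose by 3.04 and 1.19 relative to the other genes of the library, and the other 6 genes were not called. By edgeR's quasi-likelihood test with Benjamini-Hochberg adjustment over all 17625 genes tested, 3 of 9 were called, 2 higher and 1 lower, against 67.3% of all genes (32.2% higher and 35.0% lower). At an unadjusted p under 0.05 there were 4 of 9, against 73.0% of all genes. The libraries of the groups did not overlap in any of the 9 genes, 4 being higher and 5 lower after auxin, where 44.7% and 46.3% of all genes were apart in these directions. The median log2 fold change was -0.32 over the 9 genes and -0.06 over all genes tested. These are changes relative to the scaling, since with library totals alone the median over all genes went to 0.57. Under that scaling 4 of 9 were called, all higher, against 62.0% of all genes (42.8% higher and 19.2% lower). With background subtracted 3 were called higher and 1 lower, against 59.6% of all genes (27.7% higher and 32.0% lower), and DESeq2 called 3, against 66.6%. In bulk RNA, fewer cells that transcribe a gene and less RNA per cell cannot be told apart.

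IRF9 (chromosome 14, 24161213 to 24166566) had 389 and 210 reads in the controls and 42 and 17 after auxin, or 8.01 and 6.87 CPM against 2.44 and 1.24. Both auxin libraries lay below both controls, and the log2 fold change was -2.01 (SE 0.47, 95% interval -3.25 to -0.76, edgeR adjusted p = 0.024). Its reads were 59.2 and 13.5 times the background of the controls but 1.6 and 0.567 times that of the auxin libraries, so after auxin IRF9 had 1 library above and 1 below the level of silent genes. It was not called once background was subtracted (log2 fold change -2.79, edgeR adjusted p = 0.157), with library totals alone (-1.38, edgeR adjusted p = 0.0522), or without auxin replicate 1 or 2 (edgeR adjusted p = 0.0873 and 0.143). RNF31, which ends 551 bases before IRF9 on the same strand, had a log2 fold change of -1.69 (edgeR adjusted p = 0.0171).

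ISG15 (chromosome 1, 1013467 to 1014539) stayed far above background in every DLD-1 library. It had 393 and 229 reads in the controls and 170 and 140 after auxin, which was 8.09 and 7.495 against 9.87 and 10.2 CPM. Its log2 fold change of 0.36 (SE 0.28) was not called (edgeR adjusted p = 0.291). Reads were 299 and 73.3 times background in the controls and 32.4 and 23.3 times after auxin. With background subtracted the log2 fold change was 1.68 (edgeR adjusted p = 0.0185), and with library totals alone it was 1.00 (edgeR adjusted p = 0.0324), so that ISG15 was called higher under both.

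The 3 IFIT genes lie beside each other on chromosome 10 and had log2 fold changes of both signs. IFIT1 (89392546 to 89406487) had 386 and 242 reads in the controls and 56 and 65 after auxin, or 7.95 and 7.92 against 3.25 and 4.72 CPM. The log2 fold change was -0.99 (SE 0.36, 95% interval -1.94 to -0.05), which missed the threshold (edgeR adjusted p = 0.0607) and passed it without control replicate 1 or 2 (edgeR adjusted p = 0.0358 and 0.0307). Reads of IFIT1 stood at 22.6 and 5.96 times background in the controls and at 0.82 and 0.832 times after auxin, where subtraction left 0 reads in both libraries and IFIT1 was called lower (edgeR adjusted p = 0.00952). IFIT1 was also called lower in the fit over all 8 libraries (-0.78, edgeR adjusted p = 0.0471).

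IFIT2 (89301949 to 89309276) had 353 and 200 reads in the controls and 71 and 75 after auxin, or 7.27 and 6.54 against 4.12 and 5.45 CPM, and was not called (log2 fold change -0.53, SE 0.35, edgeR adjusted p = 0.221, and 0.11 with library totals alone). IFIT3 (89327819 to 89340968) had 120 and 80 reads in the controls and 82 and 94 after auxin. Both auxin libraries, at 4.76 and 6.83 CPM, were above the controls at 2.47 and 2.62. The log2 fold change of IFIT3 was 1.19 (SE 0.39, 95% interval 0.16 to 2.21, edgeR adjusted p = 0.0478). Its reads were 1.27 and 1.28 times background after auxin, and IFIT3 was not called with background subtracted (0.91, edgeR adjusted p = 0.279), without a count filter (edgeR adjusted p = 0.051), or without auxin replicate 1 or 2 (edgeR adjusted p = 0.12 and 0.287).

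OAS1 (chromosome 12, 112906934 to 112919907) had 13.7 and 11.5 CPM in the controls and 8.12 and 10.1 after auxin, from 667, 351, 140 and 139 reads. Its log2 fold change was -0.47 (SE 0.29, edgeR adjusted p = 0.202), and this was 0.18 under library totals and 0.02 after background subtraction. MX1 (chromosome 21, 41420558 to 41459214) had 18.6 and 16.9 CPM in the controls and 13.4 and 14.97 after auxin, from 901, 516, 231 and 206 reads. The log2 fold change of MX1 was -0.32 (SE 0.23, edgeR adjusted p = 0.266), its sign turned with library totals alone (0.32), and after auxin its reads were 1.22 and 0.951 times background.

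IFI6 (chromosome 1, 27666061 to 27672213) had 368 and 226 reads in the controls and 231 and 141 after auxin, or 7.58 and 7.40 against 13.4 and 10.2 CPM. Its log2 fold change of 0.66 (SE 0.30) was not called (edgeR adjusted p = 0.104). IFI6 kept 7.67 and 4.09 times background after auxin, and it was called higher with background subtracted (1.75, edgeR adjusted p = 0.00717), with library totals alone (1.29, edgeR adjusted p = 0.0249) and at a mean CPM of at least 5 (1.04, edgeR adjusted p = 0.0296). ISG15 and IFI6 were the 2 members above 3 times background in both auxin libraries, a limit set after their values were seen.

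IFI44 (chromosome 1, 78649792 to 78664078) had 20 and 40 reads in the controls and 110 and 104 in the auxin libraries. In CPM this was 0.412 and 1.31 against 6.38 and 7.56, and the log2 fold change was 3.04 (SE 0.67, 95% interval 1.27 to 4.80, edgeR adjusted p = 0.0209). Control replicate 1 was under the count filter, so IFI44 passed it only with an auxin library, and the filter favoured a rise. Reads were near background throughout, at 1.14 and 0.962 times in the controls and 1.57 and 1.3 times after auxin. Subtraction left 2 and 0 reads in the controls and 40 and 24 after auxin, and IFI44 was called under it (edgeR adjusted p = 0.0113). Without auxin replicate 1 or 2 the log2 fold change of IFI44 was 3.25 and 2.91 and was not called (edgeR adjusted p = 0.113 and 0.146).

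Under 2 times background lay 1 of the 9 genes in each control, IFI44, and 6 and 7 of the 9 in the auxin libraries. In the same libraries the 6 immune markers summed to 6.75 and 19.1 CPM in the controls and to 106.0 and 100.2 after auxin, with 4 of 6 called higher, none at 0 reads and median levels of 1.2 to 2.32 times background. The fibroblast markers (3 of 4) and the endothelial markers (3 of 3) were called higher too, where 32.2% of all genes were. PTPRC and CDH5 lay under background in every DLD-1 library, at 0.313 to 0.336 and 0.63 to 0.889 times. Other markers of these lists lay above it after auxin. CD68 was at 4.76 to 9.03 times, CD14 at 2.8 to 4.24, ITGAM at 2.43 to 4.01 and PECAM1 at 2.49 to 4.81. With background subtracted, 3 of 3 immune and 2 of 2 endothelial markers tested were called higher, where 27.7% of all genes were. Of 2 fibroblast markers tested, 1 was called higher and 1 lower. The part of background reads in the fold changes of the 9 genes was not tested beyond the subtraction.

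**Figure D3:**
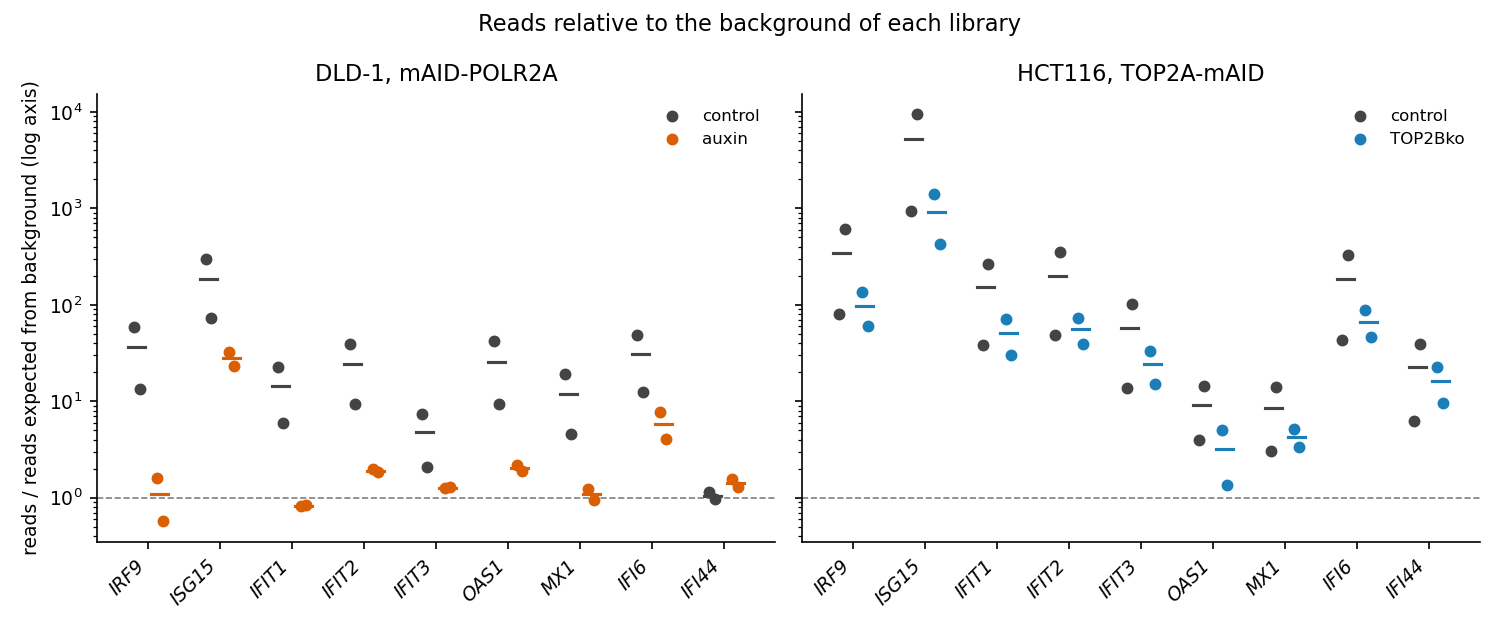
Reads of each of the 9 genes divided by the reads expected from the background density of its library (log y axis), in DLD-1 (left) and HCT116 (right), with points for libraries, bars for the mean of 2 and a dashed line at 1. After auxin, points other than those of ISG15 and IFI6 lie near the line, while in HCT116 all points lie above it.

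The HCT116 comparison asks whether these genes differed in cells labelled as lacking TOP2B. Most of the 9 genes had somewhat higher levels in TOP2Bko than in controls, with IFI44 furthest apart at 1.38 on the log2 scale, but none was called. edgeR called 0 of 9, against 3.41% of 15273 genes (1.75% higher and 1.66% lower). DESeq2 gave an adjusted p for 6 of the 9, without OAS1, MX1 and IFI44, and called 0 of these 6, against 15.3% of the 12095 genes that had one. By edgeR, 3 of 9 had an unadjusted p under 0.05, against 22.9% of all genes. The libraries of the groups were apart and higher in TOP2Bko in 6 of 9 genes and lower in 0, where 27.6% of all genes were apart in each direction. The median log2 fold change was 0.35 over the 9 genes and 0.03 over all genes.

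IFI44 had 47 and 48 reads in HCT116 controls and 124 and 118 in TOP2Bko, or 1.397 and 1.353 against 3.585 and 3.601 CPM. The spread within each group was small beside the gap between them, and the log2 fold change was 1.38 (SE 0.24, 95% interval 0.71 to 2.05). On 47 to 124 reads and 2 libraries a group, this spread is a poor measure of precision. The unadjusted p was 0.00457 and the adjusted p 0.0741 by edgeR. With background subtracted IFI44 was called (1.45, edgeR adjusted p = 0.023), 1 of 9 genes called higher against 8.56% of all genes. With library totals alone 0 of 9 were called by edgeR, against 4.81% of all genes, with 4 of 9 at an unadjusted p under 0.05.

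IFIT3 had 94 and 113 reads in the controls and 167 and 171 in TOP2Bko, or 2.79 and 3.19 against 4.83 and 5.22 CPM, with a log2 fold change of 0.75 (SE 0.20, 95% interval 0.20 to 1.29, edgeR adjusted p = 0.138). IFIT1 had 282 and 316 reads against 380 and 360, and both TOP2Bko libraries stood at 10.98 CPM above controls at 8.38 and 8.91 (log2 fold change 0.35, SE 0.12, edgeR adjusted p = 0.212). IFIT2 had 184 and 220 reads in the controls and 205 and 244 in TOP2Bko, so the groups overlapped (log2 fold change 0.20, SE 0.20, 95% interval -0.35 to 0.74, edgeR adjusted p = 0.61). The IFIT genes thus lay 0.20 to 0.75 above control on the log2 scale, with none past the threshold.

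IFI6 had 138 and 174 reads in the controls and 208 and 243 in TOP2Bko, which was 4.10 and 4.91 against 6.01 and 7.42 CPM (log2 fold change 0.58, SE 0.21, edgeR adjusted p = 0.219). MX1 had 61 and 47 reads against 76 and 110, or 1.81 and 1.32 against 2.20 and 3.36 CPM (log2 fold change 0.82, SE 0.37, 95% interval -0.21 to 1.86, edgeR adjusted p = 0.296). In both genes the TOP2Bko libraries were above the controls.

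IRF9 had 224 and 282 reads in the controls and 279 and 274 in TOP2Bko, and its CPM of 6.66 and 7.95 against 8.06 and 8.36 were just apart (log2 fold change 0.17, SE 0.16, 95% interval -0.27 to 0.61). ISG15 went the other way on average, with 531 and 876 reads in the controls and 584 and 392 in TOP2Bko, and the groups overlapped (log2 fold change -0.49, SE 0.30, 95% interval -1.33 to 0.35, edgeR adjusted p = 0.419). OAS1 had 27 and 16 reads against 25 and 15, too few to show a difference at this depth (95% interval of the log2 fold change -1.94 to 1.77). Reads of OAS1 were 1.35 to 14.4 times background over the HCT116 libraries, those of MX1 3.03 to 14.2 times and those of IFI44 6.31 to 39.3 times.

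**Figure D4:**
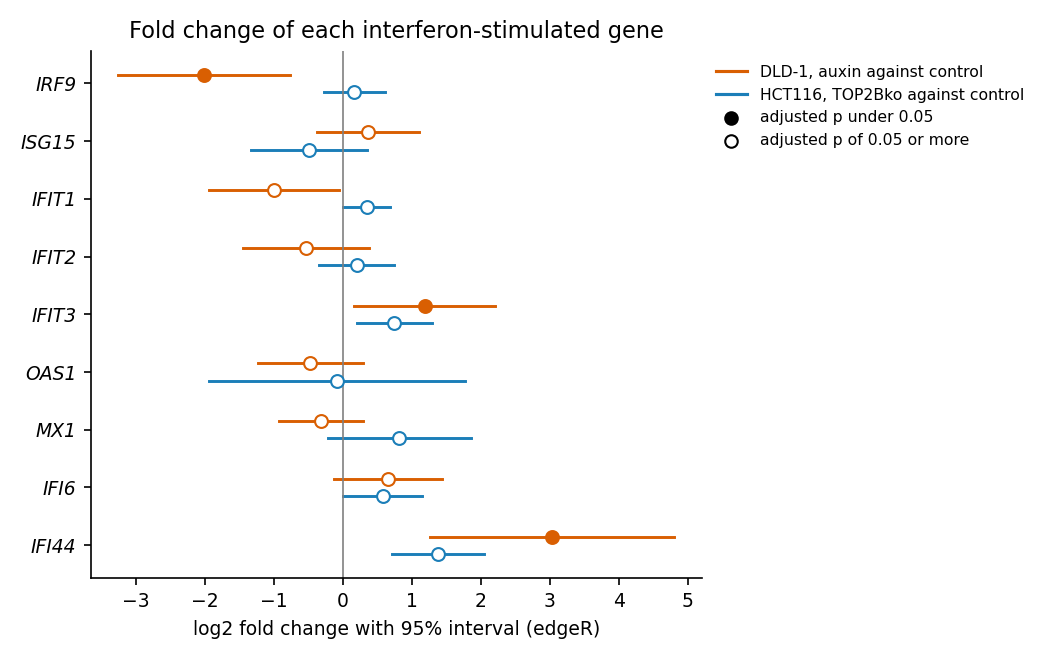
Log2 fold change of each of the 9 genes by edgeR with its 95% interval, for auxin against control in DLD-1 (orange) and TOP2Bko against control in HCT116 (blue), filled where the adjusted p was under 0.05. Filled points are IRF9 at -2.01, IFIT3 at 1.19 and IFI44 at 3.04 in DLD-1, and no HCT116 point is filled.

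The rest of the interferon pathway was described from lists of ligands, receptors, signalling factors, sensors, feedback genes and other interferon-stimulated genes. Of 12 interferon genes, 11 were in the tables and 5 were tested in DLD-1, the ones with enough reads in the auxin libraries to pass the count filter, so that their direction was set by the filter. Called higher were 3, all on few reads: IFNK (1 and 6 reads in controls, 13 and 14 after auxin), IFNL1 (1 and 2, then 9 and 13) and IFNA5 (3 and 6, then 13 and 9). The median ligand lay at 0.373 and 0.872 times background in the controls and 0.894 and 1.03 times after auxin, and edgeR called 0 of 4 tested without auxin replicate 1 and 0 of 3 without auxin replicate 2, with 1 and 0 at an unadjusted p under 0.05. DESeq2 called 1, IFNL1. In HCT116 no ligand passed the count filter.

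All 6 interferon receptor genes had lower levels after auxin in DLD-1, and 5 of 6 were called lower, where 35.0% of all genes were (median log2 fold change -1.35 against -0.06 over all genes). IFNAR1, a chain of the type I receptor, fell from 47.6 and 48.7 CPM to 23.6 and 25.9 (log2 fold change -0.96, SE 0.18, edgeR adjusted p = 0.014). Its partner IFNAR2 fell by 1.88 on the log2 scale. IFNLR1 and IL10RB, which form the type III receptor, fell by 1.47 and 1.34, and IFNGR1 of the type II receptor by 1.36. In the 2 auxin libraries 4 and 5 of 6 receptors lay under 2 times background. IL10RB was at 0.942 to 1.09 times, and IFNGR2 at 0.103 to 0.289 times, so subtraction left IFNGR2 with 0 reads there. Of all genes, 32.0% were called lower with background subtracted and 19.2% with library totals alone. After background subtraction IFNLR1, IL10RB and IFNGR2 were called lower, IFNGR2 through that floor of 0. IFNAR1 (-0.53, edgeR adjusted p = 0.0829), IFNAR2 (-4.02, edgeR adjusted p = 0.106) and IFNGR1 (-0.24, edgeR adjusted p = 0.0555) were not. Called lower were 2 of 6 under library totals, and 2 and 3 without auxin replicate 1 and 2. In HCT116, 0 of 6 receptors were called by edgeR or DESeq2 and none had an unadjusted p under 0.05 (0 of 6), with a median log2 fold change of 0.09 and IFNAR1 at 0.07.

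Among 10 JAK kinases, STAT and IRF factors, 5 fell after auxin in DLD-1 and none rose, with a median log2 fold change of -0.79, where 67.3% of all genes were called (32.2% higher and 35.0% lower). The kinases JAK2 and TYK2 fell by 1.02 and 0.77. IRF7, which drives interferon gene transcription, fell by 2.68 (SE 0.37, edgeR adjusted p = 0.007) from 556 and 335 reads to 35 and 20, and IRF3 and IRF2 by 1.36 and 0.82. With background subtracted JAK2 and IRF2 were still called lower (edgeR adjusted p = 0.00326 and 0.0367). IRF3 was at -0.25 (edgeR adjusted p = 0.26) and TYK2 turned to 0.26 (edgeR adjusted p = 0.189). IRF7 was at -3.13 and not called (edgeR adjusted p = 0.0586). STAT2, a partner of IRF9 in ISGF3, had a log2 fold change of -0.49 and was not called (edgeR adjusted p = 0.174). STAT2 kept 19.2 and 9.08 times background after auxin, and with background subtracted it was called higher (0.71, edgeR adjusted p = 0.0258). Under that subtraction 3 of the 10 were called higher and 3 lower, against 27.7% and 32.0% of all genes. Under library totals 0 were called higher and 2 lower, IRF3 and IRF7, against 42.8% and 19.2% of all genes. Of the 10, edgeR called 0 without auxin replicate 1 and 1 without auxin replicate 2, with 4 at an unadjusted p under 0.05 in each case. In HCT116 edgeR called 0 of 10, with 3 at an unadjusted p under 0.05 (median log2 fold change -0.10). STAT2 had a log2 fold change of -0.16 (edgeR adjusted p = 0.281) and IRF7 one of -1.004 (edgeR adjusted p = 0.233), and neither was called.

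Of 12 sensors of foreign nucleic acid and their adaptors, 8 fell and 3 rose in DLD-1, against 35.0% and 32.2% of all genes (median log2 fold change -1.07). IFIH1 (MDA5) and DDX58 (RIG-I), which sense viral RNA, fell by 1.84 and 0.53, and the kinase TBK1 by 1.74. Those called higher were MB21D1 (cGAS, 2.93), ZBP1 (2.83) and DHX58 (LGP2, 2.18), with reads of 0.806 to 2.75 times background after auxin. ZBP1 passed the count filter only with an auxin library and was not tested with background subtracted. With background subtracted MB21D1 and EIF2AK2 were called higher and TBK1 lower, against 27.7% and 32.0% of all genes. EIF2AK2 turned from -0.58 to 0.49 (edgeR adjusted p = 0.0468). Under this subtraction IFIH1 was at -4.15 and not called (edgeR adjusted p = 0.0592), and DDX58 turned to 0.20 (edgeR adjusted p = 0.215). Without auxin replicate 1 or 2 edgeR called 0 higher and 2 or 3 lower, with 8 and 9 at an unadjusted p under 0.05. In HCT116, of 11 sensors tested EIF2AK2, the RNA-dependent kinase PKR, was called higher (58.8 and 60.8 CPM in controls, 79.1 and 82.5 in TOP2Bko, log2 fold change 0.43, edgeR adjusted p = 0.0369). MAVS, the adaptor of the RNA sensors, was called lower (-0.68, edgeR adjusted p = 0.0269). Of all genes in HCT116, 1.75% were called higher and 1.66% lower. MAVS is on chromosome 20, over which the 405 tested genes had a median log2 fold change of -0.56. EIF2AK2 was not called without control replicate 2, and without either TOP2Bko library edgeR called 0 of 11, with 2 at an unadjusted p under 0.05.

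Among 7 tested genes of feedback and of ISG15 conjugation in DLD-1, 2 were called higher and 1 lower, against 32.2% and 35.0% of all genes. UBA7, the enzyme that activates ISG15 for conjugation, rose by 1.24 and SOCS3 by 2.23, while HERC6 fell by 1.53. The median log2 fold change of the list was 0.35. Without either auxin library no gene of this list was called higher by edgeR and 1 was called lower, and the median turned to -0.74 over 6 genes after background subtraction. SOCS3 had 22 and 8 reads in the controls and 34 and 20 in the auxin libraries. It passed the count filter through the auxin libraries, so its direction was set by the filter. Its reads were 1.08 to 2.1 times background after auxin, and it was not tested with background subtracted. Of the 7 genes in HCT116, edgeR called 0 and DESeq2 0 of the 5 with an adjusted p, each with 2 at an unadjusted p under 0.05. After background subtraction edgeR called HERC5 and HERC6 higher, where 8.56% of all genes were called higher.

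Of 39 other interferon-stimulated genes tested in DLD-1, 13 were called higher and 11 lower, shares near the 32.2% and 35.0% of all genes (median log2 fold change 0.41). Family members next to the 9 genes on their chromosomes were named whatever their values. IFI44L, 3646 bases from IFI44, rose by 3.01 (SE 0.67, edgeR adjusted p = 0.0208) from 45 and 99 reads to 287 and 230. OAS2 rose by 2.19 and MX2 by 1.81, where their neighbours OAS1 and MX1 had -0.47 and -0.32, and OAS3 was not called (0.28, edgeR adjusted p = 0.301). OAS2 and MX2 lay at 0.866 to 1.2 times background after auxin, and neither was called with background subtracted, where MX2 kept 93 and 20 reads in the controls and 0 in both auxin libraries, the opposite direction, and OAS2 was at 1.92 (edgeR adjusted p = 0.0636). IFIT5, 8080 bases from IFIT1, fell by 2.12 (SE 0.30, edgeR adjusted p = 0.00726) from 1101 and 529 reads to 83 and 60. The largest changes among the other called genes were rises of BST2 (2.79), GBP1 (2.49) and SAMD9L (2.29) and a fall of DTX3L (2.20 on the log2 scale). BST2 had 2 to 9 reads in every DLD-1 library, at 0.38 to 0.678 times background. It passed the count filter through the auxin libraries, which set its direction, and was not tested with background subtracted. GBP1 and SAMD9L lay at 1.05 to 1.36 times background after auxin, and GBP1 passed the count filter only with an auxin library. Of all genes, 27.7% were called higher and 32.0% lower with background subtracted, and 42.8% and 19.2% with library totals alone. After subtraction GBP1 and SAMD9L were called higher (edgeR adjusted p = 0.0352 and 0.0242) and DTX3L lower (edgeR adjusted p = 0.00507). Calls were 10 higher and 11 lower with background subtracted (median -0.37 over 36 genes), 20 and 8 with library totals alone, 0 and 6 without auxin replicate 1 (16 at an unadjusted p under 0.05 by edgeR), and 1 and 7 without auxin replicate 2.

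Of 37 tested in HCT116, 3 were called higher and 1 lower, against 1.75% and 1.66% of all genes (median log2 fold change 0.27). PARP9 went from 16.6 and 16.8 CPM in controls to 27.1 and 28.6 in TOP2Bko (log2 fold change 0.74, SE 0.086, edgeR adjusted p = 0.0406). SP100, a nuclear body protein, rose by 0.59 (SE 0.046, edgeR adjusted p = 0.0255) and PARP14 by 0.36 (SE 0.038, edgeR adjusted p = 0.0356). SAMHD1, which breaks down nucleotides and lies on chromosome 20, fell by 0.75 (edgeR adjusted p = 0.0254). OAS2, OAS3, MX2, IFIT5 and IFI44L were not called, at 0.01, 0.27, 1.14, 0.16 and 1.15. MX2 and IFI44L rested on 1 to 40 reads. Over all genes, DESeq2 called 15.3% in either direction, and with background subtracted edgeR called 8.56% higher. DESeq2 called 7 higher and 1 lower of 25 with an adjusted p, background subtraction 9 and 1, leaving out control replicate 1 gave 7 and 2 and control replicate 2 gave 1 and 1, and edgeR called 0 without TOP2Bko replicate 1 or 2, with 8 and 6 at an unadjusted p under 0.05.

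**Figure D5:**
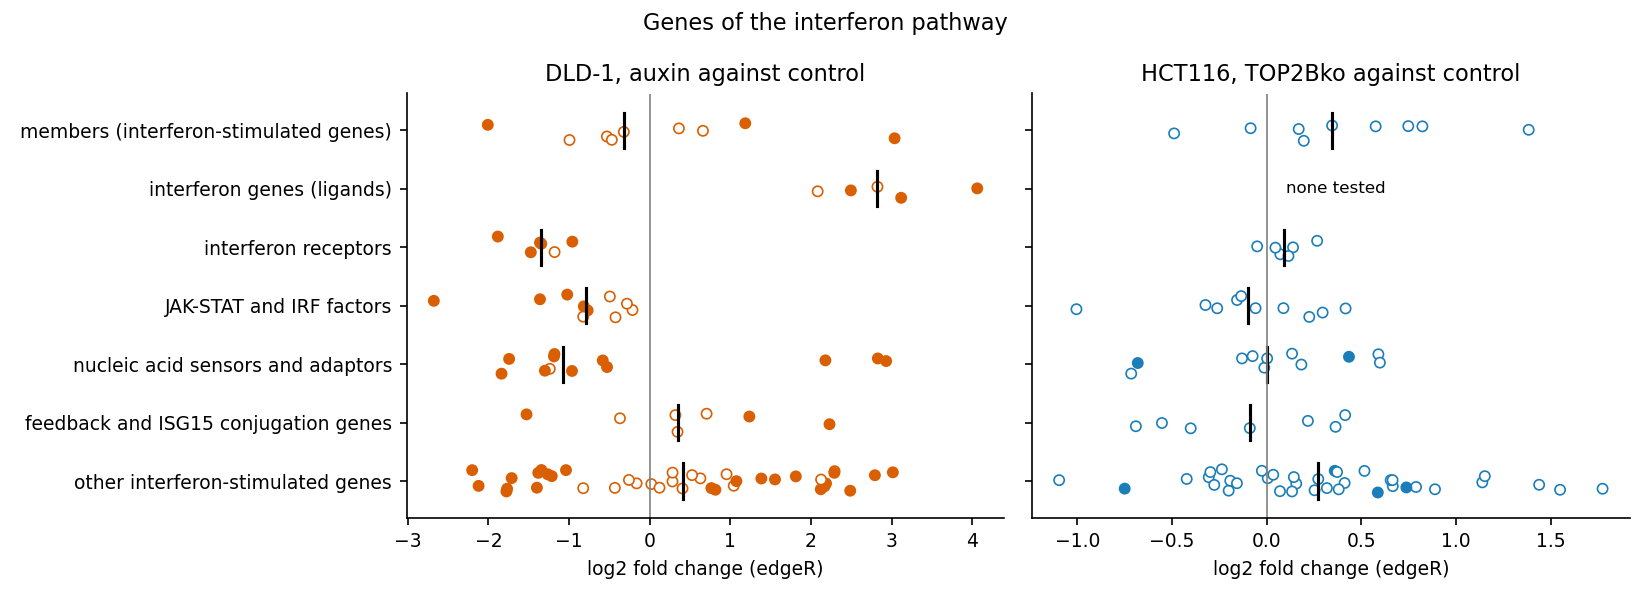
Log2 fold changes by edgeR of the 9 genes and of 6 lists of the interferon pathway, 1 point a gene, in DLD-1 (left) and HCT116 (right), filled where the adjusted p was under 0.05, with a bar at the median of each list. In DLD-1 the receptor points all lie below 0, the ligand points are those that passed the count filter through the auxin libraries, and in HCT116 the filled points are 1 higher and 1 lower among sensors and 3 higher and 1 lower among other interferon-stimulated genes.

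Other transcripts could add reads to some of these genes, because no source used here states the use of strand in counting. In RefSeq the span of LIPA, a lysosomal lipase gene (chromosome 10, 89213572 to 89414679, GRCh38.p14), covers IFIT1, IFIT2 and IFIT3 on the opposite strand, although the LIPA model that was counted ends before them. LIPA had 5522, 2878, 2491 and 1485 reads in the DLD-1 libraries (log2 fold change 0.28, edgeR adjusted p = 0.292) and 1036, 1188, 896 and 807 in HCT116 (-0.35, edgeR adjusted p = 0.122), controls first. IFIT1B, a relative of IFIT1 that lies 7340 bases from it, had 3 and 16 reads in the DLD-1 controls and 31 and 32 after auxin, at or under 0.886 times background. The part of reads from LIPA in the IFIT values was not tested.

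Over the 8 libraries, the mean log2 CPM of the 9 genes was most like that of PLEKHA4 (Pearson r = 0.988), TCN2 (0.984), STOX1 (0.983), COCH (0.982) and CYP1B1 (0.981), out of 15205 genes tested in both lines. The libraries fall into 2 cell lines that differ in level and were scaled separately, and each of the 9 genes is part of the mean. MX1 (0.925), IFI6 (0.871) and OAS1 (0.85) went with the mean while ISG15 (-0.848), IRF9 (-0.552) and IFIT1 (-0.542) ran against it. IFIT3 (0.326), IFI44 (0.328) and IFIT2 (-0.08) lay between.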

How the data were processed

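The authors deposited raw read counts per RefSeq gene model on hg38, introns included, for 8 factory-seq libraries, in 1 table per cell line. The submitters' processing notes name STAR and DESeq2, and no source used here states counting settings or the use of strand. The authors' tables of changed genes, which hold their log2 fold changes and p-values, were not used. The supplied paper describes another experiment.

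Each comparison was fitted on its 4 libraries with edgeR 4.0.16 (R 4.3.3): TMM scaling, filterByExpr, two-sided quasi-likelihood test, and Benjamini-Hochberg adjustment over all genes tested, at 0.05. Standard errors and 95% intervals were derived from the F statistic. CPM are counts relative to library size after TMM scaling, and per kb values use the counted length. Pattern likeness used log2 of CPM plus 0.5. Silent genes were the 20% of models (length 5000 bp or more) lowest in reads per kb among controls of the other line, within each chromosome, without chromosome Y and the listed genes. Background-subtracted counts had a floor of 0. The script was tested on simulated data.

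Alternatives were DESeq2 1.42.0, RLE scaling, library totals alone, no count filter, a mean CPM of at least 5, background subtraction, leaving out each library, the replicate number as a block, and all 8 libraries in 1 fit. With a library left out, the library left alone in its group was taken to vary as the opposite group did. The members and the gene lists were chosen with earlier results of these data known. All members were named, and from each list up to 5 called genes with the largest change, besides STAT2, IRF7, IFNAR1, DDX58, OAS2, OAS3, MX2, IFIT5 and IFI44L. The genes of like pattern were the 5 with the highest Pearson r. Of the named genes, 1 is not reported here. IFNE and USP41 were not matched by symbol. With 2 libraries a group, precision is limited by their spread, and for genes with few reads by counting error too.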

Additional observations from a re-analysis of the deposited data

How the results depend on the processing

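Of the 9 genes in DLD-1, the number called was 3 with DESeq2, RLE scaling and the replicate block, 4 with library totals (4 higher) and after background subtraction (3 higher, 1 lower), 2 without a count filter, 1 of 6 tested at a mean CPM of at least 5 (a filter that removed IFIT3, IFI44 and IRF9), 5 in the fit over all 8 libraries, and 0 to 4 when 1 library was left out. It was 0 without auxin replicate 1, where 1 gene had an unadjusted p under 0.05 by edgeR, and 0 without auxin replicate 2, where 0 did. Directions turned with library totals alone for IFIT2 (0.11), OAS1 (0.18) and MX1 (0.32), at a mean CPM of at least 5 for MX1 (0.077), and with background subtracted for OAS1 (0.016). Over all genes in DLD-1, 2393 to 12732 were called when a library was left out, 2393 without auxin replicate 1 and 3165 without auxin replicate 2, against 11855. With library totals alone, 7544 were higher and 3377 lower, against 5678 and 6177.

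In HCT116, 0 of the genes tested among the 9 were called under the other settings (edgeR and DESeq2), with 0 to 4 at an unadjusted p under 0.05, except 1, IFI44, with background subtracted and with crossed replicate numbers. DESeq2 gave no adjusted p for OAS1, MX1 and IFI44, and IFIT3, OAS1, MX1 and IFI44 were not tested at a mean CPM of at least 5. OAS1, on 15 to 27 reads, turned direction without control replicate 1 (0.38) and without TOP2Bko replicate 2 (0.20), with a range of -0.51 to 0.38 over libraries left out. Over all genes the count went from 521 to 1851 with DESeq2, 1221 at a mean CPM of at least 5, 2308 with background subtracted and 5 in the fit over all 8 libraries. It ranged from 0 to 2519 when a library was left out, being 0 by edgeR without TOP2Bko replicate 1 or 2 (2266 and 1286 at an unadjusted p under 0.05) and 2519 without control replicate 1. The cause of these changes was not tested.

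The libraries share only replicate numbers. Deviations of same-numbered libraries from their group means correlated at 0.581 over 17625 genes in DLD-1 and at -0.829 over 15273 genes in HCT116, and the labels name no shared batch. With the replicate block, 12963 genes and 3 of the 9 were called in DLD-1, and 0 genes in HCT116 by edgeR (2177 at an unadjusted p under 0.05). Crossed numbers in HCT116, chosen after seeing the data, called 1808 genes and 1 of the 9, IFI44 (edgeR adjusted p = 0.0404). The depth of 10739622 to 14183633 reads in auxin libraries leaves 17 to 231 reads for each of the 9 genes.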
